A study of Homo sapiens with 12 samples.

Results

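C/D box small nucleolar RNAs (snoRNAs, gene symbols beginning with SNORD) were read from the deposited expression matrix as every row whose single gene symbol starts with SNORD, taking the brightest row per symbol. The rule found 115 members among the 18417 genes tested, each with 1 row, and 49 further rows that name a SNORD together with other symbols were left out. The 12 Affymetrix arrays fall into 4 groups of 3. Treated KA is K562/ADR, a subline of K562 made resistant to adriamycin (doxorubicin, an anthracycline) and kept in medium with 50 nM adriamycin, after decitabine at 5 nM for 72 hours. Untreated KA is the same subline without decitabine, treated KS is K562 itself, the adriamycin-sensitive parent line, after the same decitabine dose and time, and untreated KS is K562 alone. K562 is an established cell line of chronic myeloid leukaemia origin, and decitabine is a cytidine analogue that traps DNA methyltransferases on DNA. KA against KS is 1 resistant line against 1 sensitive line, and the adriamycin in the medium goes with the line. How untreated cells were handled, and whether replicates were separate cultures, is not in the labels, so the p-values cover the spread between these arrays alone, which may be technical.

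C/D box snoRNAs are short RNAs of the nucleolus that pair with ribosomal RNA and direct a methyl group to the ribose of the paired nucleotide, and a few act instead in cutting or acetylating the ribosomal RNA precursor or guide modification of spliceosomal RNA. Most vertebrate ones lie in introns of other genes, are freed when the host transcript is spliced and debranched, and are then protected by the proteins fibrillarin (FBL), NOP56, NOP58 and SNU13. Many hosts encode ribosomal proteins and translation factors or are non-coding genes such as GAS5 and the SNHG genes, whose transcripts often begin with a run of pyrimidines that couples their translation to growth signals.

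Of the 115 members, 62 lay inside a host gene outside the imprinted clusters in RefSeq (GRCh38.p14). These were 25 in genes of ribosomal proteins and translation factors, 19 in non-coding hosts and 18 in other protein-coding genes. A further 40 were SNORD115 and SNORD116 copies inside SNHG14 on chromosome 15, 6 were SNORD113 and SNORD114 copies inside MEG8 on chromosome 14, and 7 had no host or were related copies elsewhere. The background line was set at 3.39 on the log2 scale, the largest of the arrays' lower quartiles, and a mean at or under it was not taken as measured. By that line 66 members were above background over all arrays, which included 61 of the 62 hosted ones and none of the imprinted copies. The probe sets read total RNA and cannot tell a mature snoRNA from its precursor or from the unspliced intron around it. Fixed to be described whatever they did, 6 members were measured (SNORD13, SNORD14C, SNORD15A, SNORD15B, SNORD44 and SNORD94) and 9 had no row with 1 symbol.

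The 5′ ends of hosts are shown because a host class is often defined by its first transcribed bases, and the members below are grouped by host. Each line gives 30 bases before and 20 bases from the RefSeq start on the transcribed strand of GRCh38.p14, with the unbroken pyrimidine run that begins with C at the start in capitals.
RPS3, host of SNORD15A and SNORD15B, chr11:75399488-75399537, plus strand: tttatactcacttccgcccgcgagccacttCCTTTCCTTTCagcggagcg
RPL13A, host of SNORD32A, SNORD33, SNORD34 and SNORD35A, chr19:49487578-49487627, plus strand: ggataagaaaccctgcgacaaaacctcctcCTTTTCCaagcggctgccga
EEF1B2, host of SNORD51, chr2:206159865-206159914, plus strand, the second of its listed starts: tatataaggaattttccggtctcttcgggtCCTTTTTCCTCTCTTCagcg
EEF2, host of SNORD37, chr19:3985444-3985493, minus strand: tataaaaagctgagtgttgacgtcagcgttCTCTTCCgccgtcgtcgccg
SNHG5, host of SNORD50A and SNORD50B, chr6:85678714-85678763, minus strand: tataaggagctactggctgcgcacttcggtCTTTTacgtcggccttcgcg
HSPA8, host of SNORD14C and SNORD14E, chr11:123062117-123062166, minus strand: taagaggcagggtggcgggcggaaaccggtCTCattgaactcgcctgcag
NCL, host of SNORD20 and SNORD82, chr2:231464465-231464514, minus strand, with no such run: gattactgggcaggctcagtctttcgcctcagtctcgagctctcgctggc
Of the 36 hosts outside the imprinted clusters, 30 were in the start table, and 12 of these had C at a start followed by at least 4 more C or T, read on the transcribed strand only. Such a run was present at a start in 5.14% of the 27305 genes of that table. A run of letters is a description of the annotated start and not evidence of how a transcript is controlled.

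The arrays were alike in scale, with medians between 4.96 and 5.01, and correlations across genes within a group were 0.994 to 0.997. ABCB1, the efflux pump that marks the resistant line, read 11.36 ± 0.04 in treated KA, 11.22 ± 0.04 in untreated KA, 3.46 ± 0.37 in treated KS and 3.39 ± 0.21 in untreated KS (mean ± SD, n = 3), high in both KA groups and near the background line in both KS groups. The embryonic globins HBE1 and HBZ, which mark the K562 lineage, had group means of 12.48 to 12.73 and 11.03 to 11.66. Of the 4 lymphoid markers with a row of 1 symbol, MS4A1 lay under the background line in every group (means up to 2.89), while CD2, CD3E and CD79A had group means of 3.52 to 4.82. Of 4 epithelial markers, CDH1 lay under it (means up to 3.27), while EPCAM, KRT8 and KRT18 had group means of 7.96 to 10.67. The part of these markers in the snoRNA results was not tested. Within their groups, 4 arrays were low for hosted snoRNAs: treated KA replicate 2 was the lowest of its 3 arrays in 44 of the 62 members, untreated KA replicate 1 in 48, treated KS replicate 2 in 44 and untreated KS replicate 3 in 41. The median gap of these arrays to the other arrays of their group was -0.16, -0.19, -0.20 and -0.27, in that order. Untreated KS replicate 3 also had the lowest array weight, 0.424, so counts are also given without it. They are given as well without it together with treated KS replicate 1 (called without both KS arrays below). Treated KS replicate 1 was not low. It was the lowest of its group in 15 of the 62 members, with a median gap of 0.05 and an array weight of 0.991. Leaving out both keeps the low treated array, replicate 2, so it is not an even check of changes that use KS arrays.

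Decitabine in the sensitive line lowered many C/D box snoRNAs. In KS, 42 of 115 members were lower and 8 were higher after decitabine, at an adjusted p under 0.05 (limma, Benjamini-Hochberg over all 18417 genes), where 30.3% of all genes were called, 15.7% lower and 14.6% higher. The members' median change was -0.19 on the log2 scale, beside -0.01 over all genes. Of the lower members 40 of 42 were hosted ones, as were 61 of the 66 members above background over all arrays, so the 40 say little about hosting. The 62 hosted members had a median change of -0.57. Without untreated KS replicate 3 the counts were 43 lower and 6 higher, and without both KS arrays 39 lower and 6 higher. Leaving out each of the 12 arrays in turn kept 34 of the 42 lower calls and 5 of the 8 higher calls throughout.

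The 3 members with the lowest adjusted p lay in translation hosts and in SNHG1. SNORD30 (chr11:62853663-62853732), carried by the non-coding host SNHG1, read 8.25, 8.12 and 8.35 in treated KS, against 9.33, 9.34 and 9.24 in untreated KS. SNORD51 (chr2:206161881-206161950), in the gene of the elongation factor subunit EEF1B2, read 4.15, 4.06 and 4.20 in treated KS, against 5.29, 5.35 and 5.12 in untreated KS. SNORD4A (chr17:28722582-28722653), in the ribosomal protein gene RPL23A, read 7.72, 7.47 and 7.48 in treated KS, against 8.69, 8.81 and 8.52 in untreated KS. In all 3 of these members every treated KS array lay below every untreated KS array. Where a member here or below was picked by its call, a lack of overlap between its groups adds no support. The changes were -1.06 ± 0.08 for SNORD30, -1.12 ± 0.09 for SNORD51 and -1.12 ± 0.10 for SNORD4A (± SE throughout), and the limma adjusted p were 6.92e-06, 7.17e-06 and 9.06e-06.

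SNORD20 (chr2:231456444-231456523), a snoRNA of the nucleolin gene NCL, read 2.74, 2.25 and 2.33 in treated KS, against 4.33, 5.23 and 3.78 in untreated KS. The treated arrays were all under the background line, so the fitted change of -2.01 ± 0.32 (limma adjusted p = 0.000365) rests on values not taken as measured. With the line as floor the change was -1.05 or more negative. The largest measured falls were those of SNORD38B (-1.43 ± 0.19), SNORD50B in SNHG5 (-1.37 ± 0.20), SNORD75 in GAS5 (-1.34 ± 0.19) and SNORD12C in ZFAS1 (-1.30 ± 0.18). SNORD96A in RACK1, a scaffold protein of the small ribosomal subunit, changed by -1.25 ± 0.17. SNORD14E and SNORD14C in the chaperone gene HSPA8 changed by -1.21 ± 0.18 and -1.19 ± 0.15. SNORD37 in the elongation factor gene EEF2 changed by -1.17 ± 0.16, and SNORD59B in ATP5F1B, which encodes a subunit of mitochondrial ATP synthase, by -1.16 ± 0.16. For these 9 members limma adjusted p lay between 6.77e-05 and 0.000216.

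The lower members in KS were counted by host class, and the differences between classes were not tested. Of the members in translation hosts, 18 of 25 were lower and 1 higher, with a median of -0.56. In non-coding hosts 14 of 19 were lower and none higher, with a median of -0.68. In other protein-coding hosts 8 of 18 were lower and 2 higher, with a median of -0.26. Among the 40 copies of the chromosome 15 cluster 1 was lower and none higher, but none of these exceeded background over all arrays, so their counts say little about the RNAs. Members lower in KS numbered 12 of 20 in hosts with the pyrimidine run at a start and 18 of 30 in hosts without it.

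**Figure D1:**
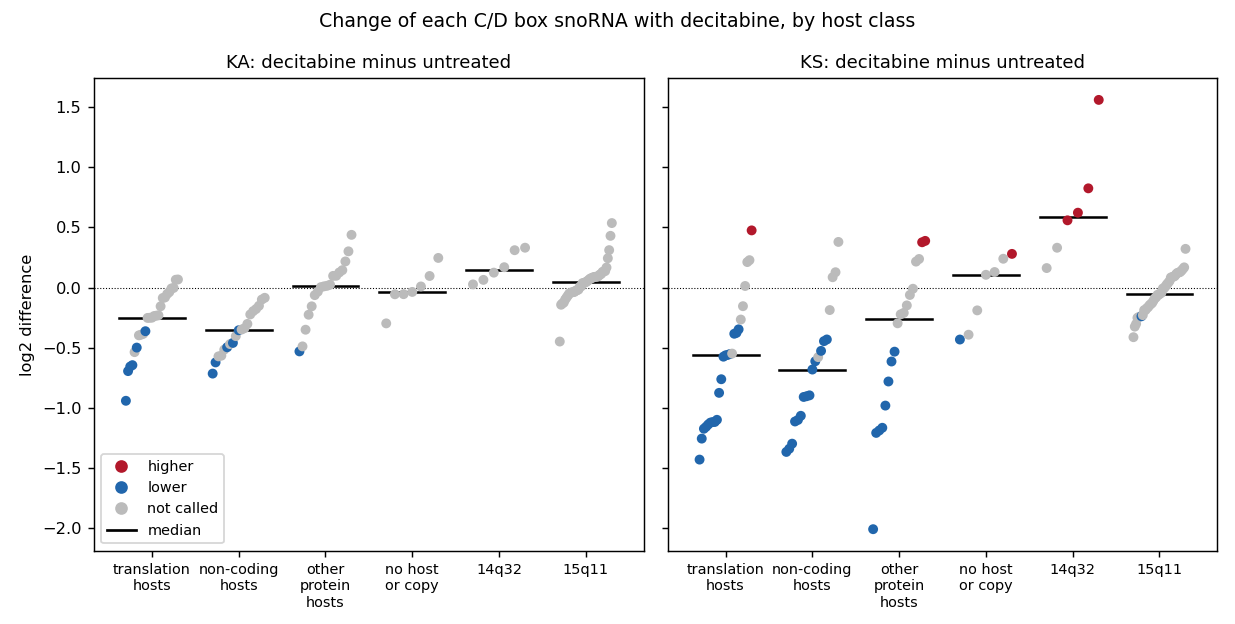
Change of each of the 115 C/D box snoRNAs with decitabine in KA (left) and KS (right) on the log2 scale, by host class. Points are members ordered by size within a class, colours give the call at an adjusted p under 0.05 and black lines are class medians. The hosted classes lie lower in KS (medians -0.56, -0.68 and -0.26) than the chromosome 15 copies (median -0.05), none of which exceeded background over all arrays.

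The 8 members higher in treated KS, 6.96% of the 115 and under the 14.6% over all genes, were of 2 kinds. SNORD35A in RPL13A (0.48 ± 0.11), SNORD94 in PTCD3, a guide for U6 spliceosomal RNA (0.39 ± 0.10), SNORD45A in RABGGTB (0.38 ± 0.13) and SNORD13P3, a copy of SNORD13 (0.28 ± 0.09), were well above background and rose by small amounts, with limma adjusted p of 0.00531, 0.00772, 0.0416 and 0.0391. The calls of SNORD45A and SNORD13P3 were lost without untreated KS replicate 3 (adjusted p = 0.103 and 0.0942) and in 6 of the 12 fits that left out 1 array each. SNORD94 changed by 0.30 ± 0.10 in KA (limma adjusted p = 0.0546) without a call. SNORD13 itself, a snoRNA transcribed from its own promoter that guides acetylation of small-subunit ribosomal RNA, read 12.03 ± 0.15 in treated KS and 11.79 ± 0.04 in untreated KS (0.24 ± 0.09, limma adjusted p = 0.0662) and was not called. A shared signal between SNORD13 and its copies cannot be told apart on the array.

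The other kind were copies of the imprinted chromosome 14 cluster, which lies in MEG8 and is silent in many cell types. SNORD114-3 (chr14:100953349-100953422) read 3.52, 3.80 and 4.87 in treated KS, against 2.33, 2.08 and 3.11 in untreated KS. Each treated array lay above the background line and each untreated one below it, so the fitted change was 1.56 ± 0.30 (limma adjusted p = 0.00132), and with the line as floor at least 0.67. SNORD113-4, SNORD114-26 and SNORD113-3 changed by 0.83 ± 0.13, 0.62 ± 0.11 and 0.56 ± 0.17 and were called higher, but their means were under the background line in both groups, and the SNORD113-3 call was lost without both KS arrays (adjusted p = 0.0979). In KA the 6 copies changed by 0.03 to 0.33 with decitabine and none was called.

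Decitabine in the resistant line lowered 12 of 115 members and raised none at that threshold, where 14.6% of all genes were called, 4.96% lower and 9.66% higher. At an unadjusted p under 0.05, 6 members were higher and 24 lower. The median change was -0.04, beside -0.02 over all genes, and -0.23 over the 62 hosted members. The count of 12 rested on single arrays: it was 4 without treated KA replicate 2, without untreated KA replicate 2 or without untreated KA replicate 3, and 16 without both KS arrays. With array weights 27 members were lower and 4 higher, where 9.88% of all genes were lower and 14.1% higher. SNORD15A, SNORD28, SNORD30 and SNORD43 were called in each of the 12 fits that left out 1 array.

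SNORD15A (chr11:75400391-75400538) in RPS3 fell most in KA. It read 7.05, 6.96 and 7.14 in treated KA, against 7.92, 8.11 and 7.94 in untreated KA, and 7.86, 7.68 and 7.97 in treated KS, against 8.19, 8.10 and 8.34 in untreated KS. The treated KA arrays lay below all other 9 arrays. The change was -0.94 ± 0.09 in KA (limma adjusted p = 0.000102), a 1.92-fold fall, and -0.38 ± 0.09 in KS (limma adjusted p = 0.00795). SNORD15B (chr11:75404421-75404566), a second snoRNA of RPS3, changed by -0.09 ± 0.10 in KA and -0.15 ± 0.10 in KS and was called in neither.

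SNORD28 in SNHG1 read 8.91, 8.61 and 8.85 in treated KA, against 9.44, 9.47 and 9.59 in untreated KA (-0.71 ± 0.15, limma adjusted p = 0.007). SNORD43 in RPL3 read 6.89, 6.85 and 6.52 in treated KA, against 7.33, 7.44 and 7.58 in untreated KA (-0.69 ± 0.10, limma adjusted p = 0.00108). In both members the groups did not overlap. The others were SNORD96A (-0.66), SNORD38B (-0.64), SNORD75 (-0.62), SNORD61 in RBMX (-0.53), SNORD54 in RPS20 (-0.50), SNORD78 in GAS5 (-0.50), SNORD30 (-0.46), SNORD4A (-0.36) and SNORD52 in SNHG32 (-0.35). All 12 members lower in treated KA were also among the 42 lower in treated KS, which makes 100% of the KA list and 28.6% of the KS list. The decitabine comparisons in KA and KS share no array. Both use the same estimate of each gene's spread, taken from all 12 arrays, so the lists are not independent. Over all genes 649 of the 914 lower in KA were also lower in KS, which makes 71.0% of the KA list and 22.4% of the KS list. Of the 42 members lower in KS, 34 (81.0%) had a value below 0 in KA, near the 80.5% over all genes lower in KS.

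**Figure D2:**
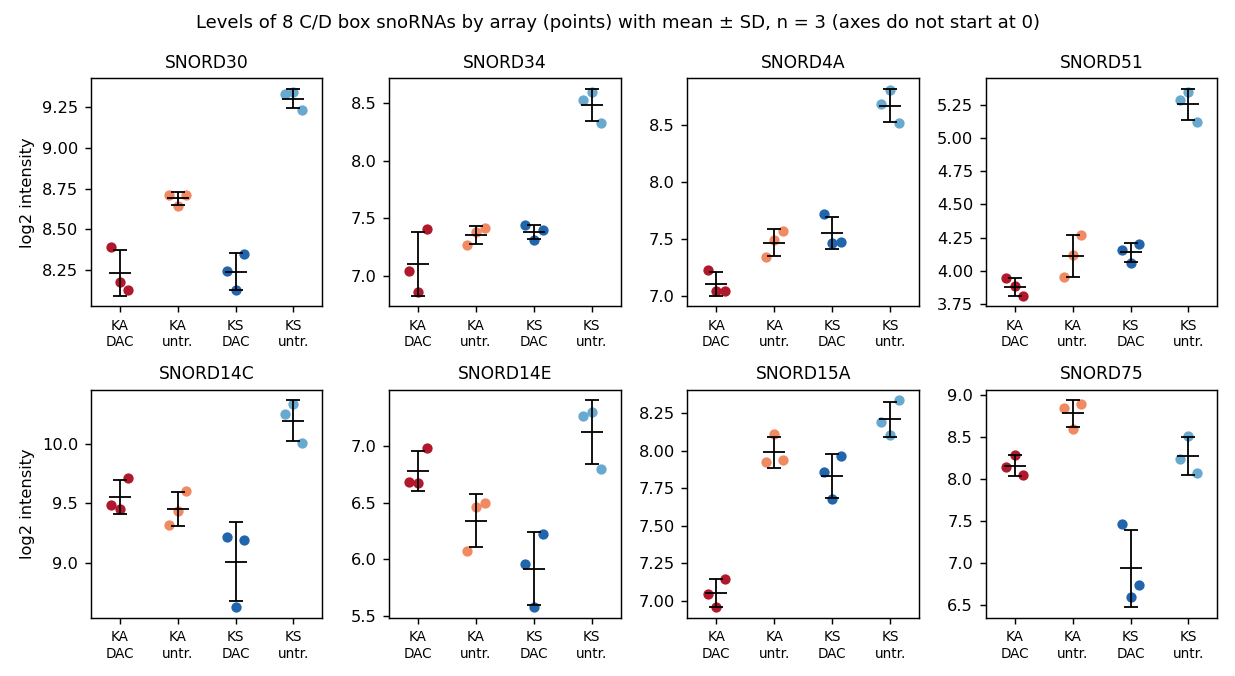
Levels of 8 C/D box snoRNAs on the log2 scale in each array (points, n = 3 per group) with mean ± SD, for treated KA, untreated KA, treated KS and untreated KS. In SNORD30, SNORD34, SNORD4A, SNORD51, SNORD14C and SNORD14E untreated KS is the highest group, SNORD15A is lowest in treated KA (mean 7.05) and SNORD75 is lowest in treated KS (mean 6.94).

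The difference of the decitabine responses, KA minus KS, was called for 13 members, 11 with a more negative change in KS and 2 with a more negative or smaller change in KA, where 6.74% of all genes were called, 4.60% positive and 2.14% negative. The members' median difference was 0.17. The untreated KS arrays enter this difference, so a high value in them makes it more positive. SNORD14E and SNORD14C, in HSPA8, differed by 1.65 ± 0.25 and 1.29 ± 0.21 (limma adjusted p = 0.00394 and 0.00599). SNORD14C (chr11:123059335-123059422), whose yeast relative is needed to process small-subunit ribosomal RNA, read 9.49, 9.45 and 9.71 in treated KA, against 9.32, 9.44 and 9.60 in untreated KA. It read 9.22, 8.62 and 9.19 in treated KS, against 10.25, 10.33 and 10.00 in untreated KS. The KA groups overlapped and the KS groups did not.

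The positive difference of SNORD20 (2.02 ± 0.45) set a fall in KS beside means of 2.59 in treated KA and 2.58 in untreated KA, both under the background line, where a fall in KA could not be read, and its size rests on values under that line. SNORD37 (1.02), SNORD59B (1.01), SNORD21 in RPL5 (0.93), SNORD51 (0.88), SNORD34 (0.85), SNORD1A in SNHG16 (0.76), SNORD4A (0.76) and SNORD30 (0.61) completed the positive list. Of these 11, 7 were called in each of the 12 fits that left out 1 array: SNORD14C, SNORD14E, SNORD21, SNORD30, SNORD34, SNORD4A and SNORD51. The count rose to 18 without untreated KS replicate 3 and to 22 without both KS arrays. SNORD15A (-0.56 ± 0.13) and SNORD114-26 (-0.60 ± 0.16) had negative differences, with limma adjusted p of 0.0263 and 0.0391, and neither was called in all 12 of those fits.

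Untreated, the resistant line held less of many of these snoRNAs than the sensitive line. Between untreated KA and untreated KS, 34 of 115 members were lower in KA and 2 higher, where 25.7% of all genes were called, 14.1% lower and 11.6% higher, and the median was -0.20 beside 0.02 over all genes. By class, 16 of 25 members in translation hosts were lower, 5 of 19 in non-coding hosts and 6 of 18 in other protein-coding hosts. The count of 34 was 20 without untreated KS replicate 1, 33 without untreated KS replicate 3 and 37 without both KS arrays. This comparison, that of decitabine in KS and the difference of the decitabine responses all use the untreated KS arrays. A high value in those arrays enters each, so they are not separate evidence.

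SNORD4A read 7.34, 7.49 and 7.57 in untreated KA, against the untreated KS values given above, a change of -1.20 ± 0.10 (limma adjusted p = 1.78e-06). SNORD51 read 3.95, 4.12 and 4.27 in untreated KA (-1.14 ± 0.09, limma adjusted p = 1.16e-06). Every untreated KA array lay below every untreated KS array for both. SNORD34 (chr19:49490907-49490972) read 7.27, 7.38 and 7.42 in untreated KA, against 8.52, 8.60 and 8.33 in untreated KS (-1.12 ± 0.12, limma adjusted p = 1.53e-05).

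SNORD20 (fitted at -1.87 ± 0.32, and at -1.05 with the background line as floor, since untreated KA was under it), SNORD102 in RPL21 (-1.51 ± 0.24), SNORD21 (-1.06 ± 0.14), SNORD38A and SNORD38B (both -0.95) and SNORD83B in RPL3 (-0.82 ± 0.08) were also lower. SNORD74, the first snoRNA of GAS5, was the only member above background over all arrays that was called higher in KA (0.50 ± 0.09, limma adjusted p = 0.00097), with 10.17, 10.22 and 10.32 in untreated KA, against 9.72, 9.72 and 9.75 in untreated KS. SNORD116-6 (-1.22) and SNORD116-15 (0.82) were called, the first with both means under the background line and the second with that of untreated KS under it (at least 0.29 with the line as floor). Both calls were lost without untreated KS replicate 3 (adjusted p = 0.0965 and 0.114).

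With both lines treated, 12 of 115 members (10.4%) were lower and 6 (5.22%) higher in treated KA than in treated KS. Of all genes 27.0% were called, 11.9% lower and 15.1% higher, so neither share of members exceeded that over all genes. SNORD75 read 8.15, 8.29 and 8.05 in treated KA, against 7.47, 6.61 and 6.75 in treated KS (1.22 ± 0.19, limma adjusted p = 0.000277), with no overlap. SNORD77, another GAS5 snoRNA, read 4.10, 3.97 and 3.96 in treated KA, against 3.22, 2.32 and 3.47 in treated KS, whose mean lay under the background line (at least 0.59 higher with the line as floor, limma adjusted p = 0.00949). SNORD14E (0.86), SNORD14C (0.54), SNORD37 (0.52) and SNORD116-20 (0.45, under the background line in both groups) were higher too.

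Lower in treated KA were SNORD114-3 (-1.52), SNORD113-4 (-0.88), SNORD15A (-0.78), SNORD58A in RPL17 (-0.73), SNORD83B (-0.51), SNORD96B, a copy of SNORD96A inside AMMECR1 (-0.48), SNORD4A (-0.45), SNORD41 in TNPO2 (-0.37), SNORD35A (-0.34) and SNORD15B (-0.30), with SNORD4B and SNORD46 at smaller sizes. SNORD113-4 was under the background line in both groups, and for SNORD114-3 treated KA was (-0.67 with the line as floor). The count of 12 was 6 without treated KA replicate 1 and 5 without treated KS replicate 3, and the count of 6 was 10 without both KS arrays. The SNORD41 call was lost without untreated KS replicate 3 (adjusted p = 0.0514), and that of SNORD58A without both KS arrays (adjusted p = 0.0536). Leaving out each of the 12 arrays in turn kept 5 of the 12 lower calls and 3 of the 6 higher calls throughout. SNORD41 was called in 2 of those 12 fits, SNORD46 in 6, SNORD15B and SNORD35A in 7 each, and SNORD58A and SNORD96B in 8 each.

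In some hosts, such as RPL13A, snoRNAs of 1 host gene changed unequally in KS, while in RPL23A and RPL3 all measured members were lower. Differences between members of a host were not tested. The 4 members in RPL13A, which encodes a protein of the large ribosomal subunit, changed in KS by 0.21 ± 0.13 (SNORD32A), 0.23 ± 0.09 (SNORD33), -1.10 ± 0.12 (SNORD34) and 0.48 ± 0.11 (SNORD35A), and only the last 2 were called. SNORD34 read 7.44, 7.32 and 7.40 in treated KS, against 8.52, 8.60 and 8.33 in untreated KS. SNORD35A (chr19:49491175-49491260), just downstream in the same gene, read 9.40, 9.30 and 9.59 in treated KS, against 8.91, 8.80 and 9.15 in untreated KS. The groups did not overlap in either member, and the directions were opposite.

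GAS5, a non-coding gene whose transcript is short-lived in growing cells because it is decayed when translated, holds 7 measured members. In KS SNORD74 changed by 0.09, SNORD75 by -1.34, SNORD77 by -1.10, SNORD44 by -0.61, SNORD78 by -0.91, SNORD79 by -0.58 and SNORD81 by -0.68 along the host, and 5 of the 7 were called lower (not SNORD74 and SNORD79). For SNORD77 treated KS was under the background line, and with it as floor the change was -0.68. In KA the 7 changed by -0.62 to -0.18 and 2 were called. SNORD44 read 8.14, 7.58 and 7.92 in treated KS, against 8.46, 8.71 and 8.31 in untreated KS (-0.61 ± 0.15, limma adjusted p = 0.00591), and changed by -0.30 ± 0.15 in KA without a call.

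SNORD38A and SNORD38B are related in sequence, as are SNORD14C and SNORD14E, SNORD4A and SNORD4B, and SNORD15A and SNORD15B, so part of a signal may be shared between such copies, and how the probes divide it was not tested. The 3 members of RPL23A changed by -1.12 to -0.57 and the 3 of RPL3 by -0.56 to -0.35 in KS, and all 6 were called lower. The 3 members of RABGGTB, which encodes a subunit of an enzyme that attaches lipid to RAB proteins, changed by -0.15 to 0.38 in KS, and 1 (SNORD45A) was called higher.

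**Figure D3:**
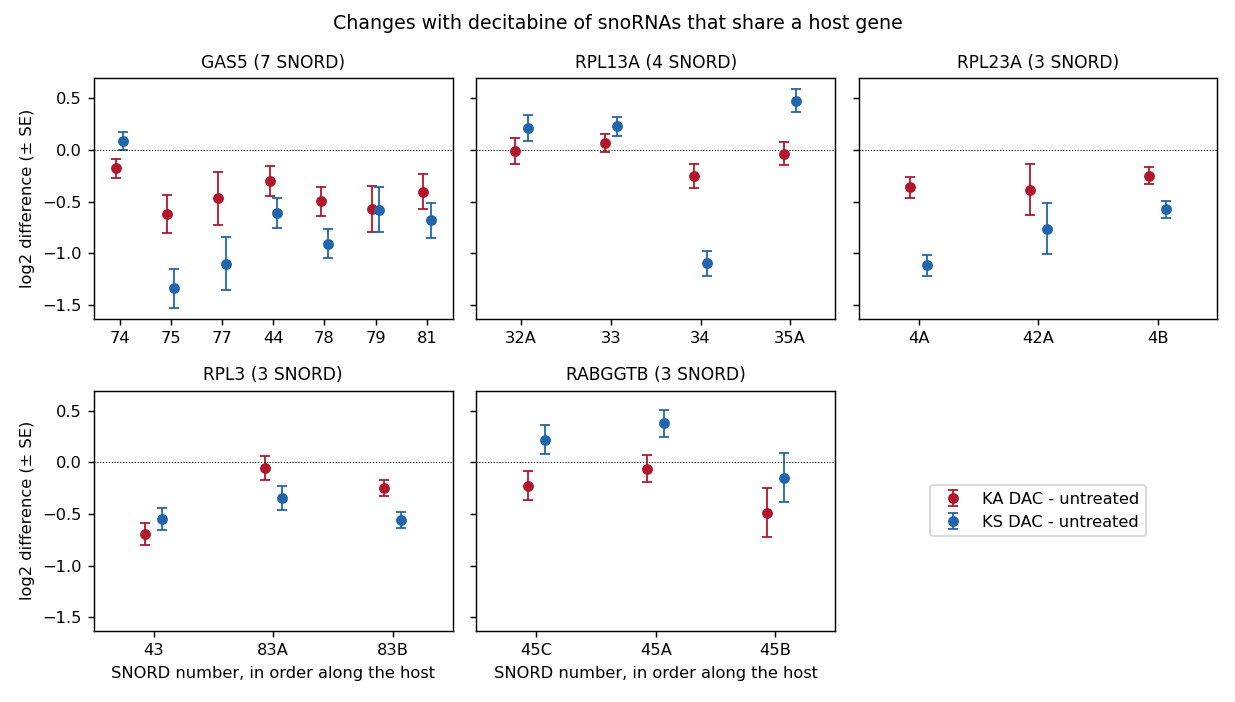
Log2 changes with decitabine (± SE) of snoRNAs that share a host gene, in KA and in KS, in order along each of 5 hosts (by coordinate for RPL23A). In RPL13A in KS, SNORD34 lies at -1.10 while SNORD35A lies at 0.48.

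Host transcripts were read by probe sets of their own. A host row with 1 symbol was found for 30 members in 20 hosts. In KS, where 15.7% of all genes were lower and 14.6% higher, 20 of these 30 members were lower. Their host was lower in 5 of these cases (in NCL, ATP5F1B and HSPA9), not called in 14 and higher in 1. Of the 20 hosts, 6 were lower and 2 higher in KS. The median change in KS was -0.56 over the 30 members and -0.05 over the 20 hosts, and 23 of 30 members had a lower value than their host. In KA, where 4.96% of all genes were lower, 4 of the 30 members were lower, each with a host that was not called. There 4 of the 20 hosts were lower. Between the untreated lines, where 14.1% of all genes were lower in KA, 17 of the 30 members were lower in KA. The host was not called in 16 of these cases and higher in 1. Between the treated lines, where 11.9% of all genes were lower in KA and 15.1% higher, 7 of the 30 members were lower and 3 higher. For the 7, the host was lower in 1 case (TNPO2, host of SNORD41) and not called in 6. For the 3, the host was lower in 2 cases and not called in 1. AMMECR1, which contains SNORD96B and is not among the 20 hosts, was lower (-0.76 ± 0.09, limma adjusted p = 4.46e-05). The difference between a member's change and its host's change was not tested, and levels of different probe sets were not set against each other.

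RPS3, a protein of the small ribosomal subunit, changed by 0.05 ± 0.06 in KA, where SNORD15A fell by 0.94, and by 0.07 ± 0.06 in KS. HSPA8 changed by -0.25 ± 0.06 in KA (limma adjusted p = 0.0169), where SNORD14C and SNORD14E changed by 0.10 and 0.44 without a call, and by -0.00 ± 0.06 in KS, where both snoRNAs fell. EEF2, the factor that moves the ribosome along the message, was higher in treated KS (0.22 ± 0.06, limma adjusted p = 0.00934) while SNORD37 was lower. RPL5 (0.10 ± 0.06), RPL23A (-0.08 ± 0.06), EEF1B2 (-0.21 ± 0.11) and ZFAS1 (-0.02 ± 0.09) were not called in KS.

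NCL, a main nucleolar protein, was lower with decitabine in both lines, by -0.48 ± 0.10 in KA and -0.70 ± 0.10 in KS (limma adjusted p = 0.00706 and 0.000171). Its snoRNA SNORD82 changed by -0.53 ± 0.16 in KS (limma adjusted p = 0.0239) and by 0.00 in KA. RABGGTB (-0.58 ± 0.09) and TNPO2 (-0.68 ± 0.07), a nuclear import receptor, were lower in KS, while their snoRNAs SNORD45A (0.38, called) and SNORD41 (0.24, not called) had positive values. WDR43, a factor of small-subunit assembly that hosts SNORD53, was lower in KS (-0.71 ± 0.09), where SNORD53 changed by -0.21 without a call.

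**Figure D4:**
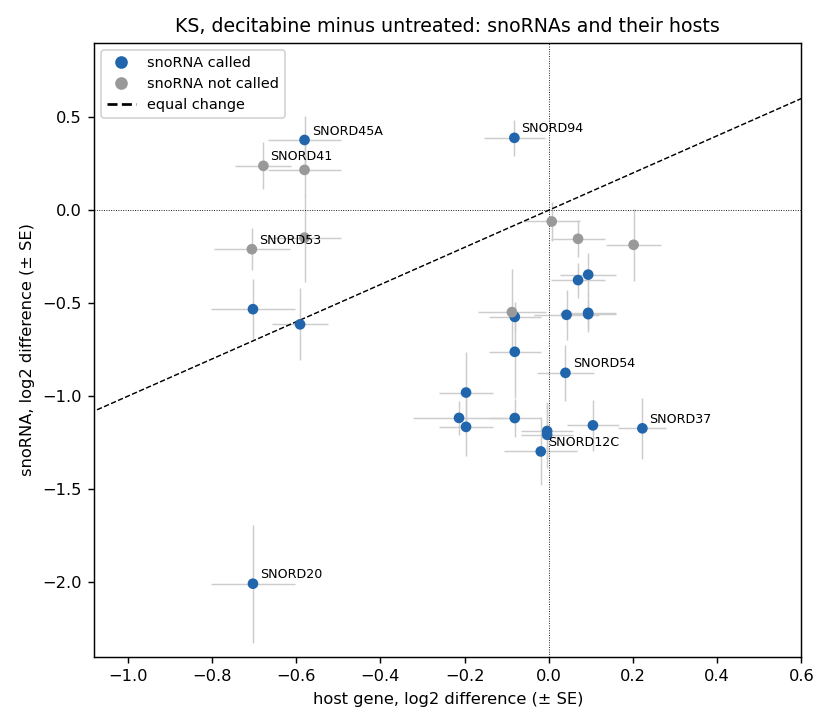
Log2 change with decitabine in KS of 30 C/D box snoRNAs (vertical axis) against that of their host gene (horizontal axis), both ± SE, with a dashed line of equal change. Most points lie below the line (23 of 30), SNORD37 is lower while its host EEF2 is higher, and SNORD45A is higher while RABGGTB is lower.

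The genes of proteins that build C/D box particles were counted against the shares over all genes, 4.96% lower and 9.66% higher in KA and 15.7% lower and 14.6% higher in KS. In KA FBL, the methyltransferase of the particle, changed by -0.36 ± 0.07 (limma adjusted p = 0.0044) and NOP58 was not called, and in KS FBL changed by -0.47 ± 0.07 and the core protein NOP58 by -0.76 ± 0.11 (limma adjusted p = 0.0002 and 0.00021). These were the 2 core proteins with a row of 1 symbol. Of 9 assembly factors 2 were lower in KA and 6 in KS, where ZNHIT6 changed by -0.73, NUFIP1 by -0.58, RUVBL1 by -0.57 and RUVBL2 by -0.51. Of 8 genes of nuclear trafficking 2 were lower in KA and 7 in KS, with the nucleolar and Cajal body protein NOLC1 at -0.49 in KA and -0.70 in KS and the cap-modifying enzyme TGS1 at -0.50 in KS. None of these 19 genes was higher with decitabine in either line.

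The same shares over all genes stand beside the next lists. Of 10 genes of intron release and trimming, 1 was higher and none lower in KA, and 1 was higher and 6 lower in KS. The cytoplasmic exonuclease XRN1 was the higher one in both (0.47 ± 0.07 in KA and 0.80 ± 0.07 in KS), while the exosome subunit EXOSC3 (-0.66), the trimming enzyme TOE1 (-0.57), the tailing enzyme TENT4B (-0.54) and the debranching enzyme DBR1 (-0.53) were lower in KS. Of 11 genes of RNA polymerase I and its factors, which make the ribosomal RNA that these snoRNAs modify, 3 were lower and 1 higher in KA and 7 lower and 1 higher in KS, with POLR1B at -0.44 in KA and -0.98 in KS. Of 5 genes of nonsense-mediated decay none was called in KA, and in KS 1 was higher (SMG1, 0.23) and 1 lower (SMG5, -0.46). Of 7 erythroid markers none was called with decitabine in KA and 5 were higher in KS (HBZ by 0.47). The part of that shift in the snoRNA changes was not tested.

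Other small RNA classes were counted in the same way. In KS, where 15.7% of all genes were lower and 14.6% higher, 12 of 61 H/ACA box (SNORA) snoRNAs, which guide pseudouridylation, were higher and 18 lower, with a median of -0.13. Of 16 Cajal body RNAs (SCARNA) 8 were higher and none lower, with a median of 0.39, and of 189 microRNA genes 4 were higher and 20 lower, both under the share over all genes. In KA, where 4.96% of all genes were lower and 9.66% higher, 2 SNORA were higher and 2 lower, and no SCARNA was called. Between untreated KA and untreated KS, where 14.1% of all genes were lower and 11.6% higher, 23 of 61 SNORA were lower and 4 higher. Ribosomal protein genes, 67 with 1 symbol, had 1 higher and 1 lower in KA and 4 higher and 11 lower in KS, with medians of -0.01 and -0.00.

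The median over the 115 C/D box members was 4.34, 4.31 and 4.22 in treated KA, against 4.46, 4.68 and 4.69 in untreated KA. It was 4.63, 4.40 and 4.59 in treated KS, against 5.29, 5.17 and 4.89 in untreated KS. Over these 115 members, 49 of them not above background, each treated array lay below each untreated array of its line. Over the 62 hosted members the median was 6.84, 6.64 and 6.76 in treated KA, against 6.69, 6.90 and 6.97 in untreated KA, and those groups overlapped. It was 6.97, 6.51 and 6.74 in treated KS, against 7.28, 7.32 and 7.05 in untreated KS, with no overlap. The median over SCARNA was 6.54, 6.58 and 6.68 in treated KS, against 6.02, 5.97 and 6.10 in untreated KS, the opposite direction.

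**Figure D5:**
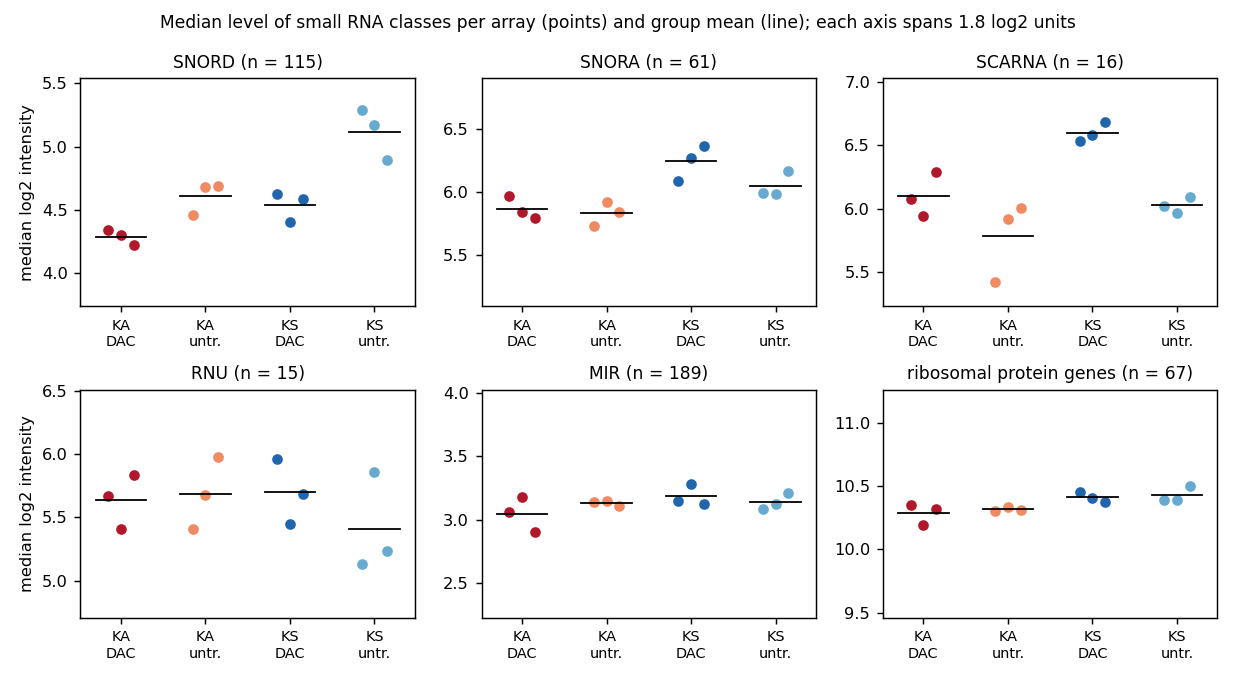
Median log2 intensity per array (points) and group mean (line) of 5 classes of small RNA and of ribosomal protein genes, for treated KA, untreated KA, treated KS and untreated KS. The SNORD median is highest in untreated KS (4.89 to 5.29), and the SCARNA median is higher in treated KS (6.54 to 6.68) than in untreated KS (5.97 to 6.10).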

How the data were processed

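RNA from Trizol extracts was labelled as biotinylated cRNA and hybridized to Affymetrix arrays, per the labels' protocols. The authors deposited log2 intensities, used here unscaled; background correction, summarization and normalization are not given in the sources used here. Of 33297 rows, 19460 carried 1 symbol in the platform annotation, 1754 several and 12083 none. The brightest row stood for each of 18417 genes. A group-means model of all 12 arrays was fitted with limma 3.58.1 under R 4.3.3. Variances were moderated by empirical Bayes, with 4.71 prior and 8 residual degrees of freedom, and p was Benjamini-Hochberg adjusted in each of 5 comparisons. The fit was tested on simulated data. Where 1 group mean lay under the background line, the change was also computed with that group's arrays raised to at least the line, a step added after the values were seen. The number of arrays limits the precision.

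Hosts are the RefSeq genes (GRCh38.p14) whose interval contains a member. The plan asked for the same strand, but the table used gives none, so strand was ignored; all 56 members in a hand-written host list had the same host. Start sequences are from RefSeq, same build. Results that need certain host genes are not reported here. Members, lists and rules were chosen with earlier results of these data known. Named are up to 10 members per direction and comparison by size among those called, a fixed set, hosts of these and list genes called; a few other members are named as values of a shared host, chosen after their values were seen.

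Same-numbered arrays were checked for pairing: deviations of treated and untreated KA arrays with the same number correlated at -0.13, -0.01 and 0.13, so the numbers were not taken to pair them. The arrays low for hosted snoRNAs (treated KA replicate 2, untreated KA replicate 1, treated KS replicate 2 and untreated KS replicate 3) deviated together over all genes. Their deviations correlated at 0.18 to 0.26. A replicate block goes by number and does not take up what these arrays share, and this was not modelled. Alternatives were quantile scaling, median centring, a filter on dim rows, the mean of a symbol's rows, all rows tested, a replicate block, only the arrays compared, a trended robust prior, array weights, and leaving out arrays. Python 3.11.15 with matplotlib 3.10.9 made the figures.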

Additional observations from a re-analysis of the deposited data

Results flagged for a closer look

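In 13 members the decitabine response differed between the lines by the interaction test of the limma fit (KA minus KS, on the log2 scale). Positive differences were 2.02 for SNORD20, 1.65 for SNORD14E, 1.29 for SNORD14C, 1.02 for SNORD37, 1.01 for SNORD59B, 0.93 for SNORD21, 0.88 for SNORD51, 0.85 for SNORD34, 0.76 for SNORD1A, 0.76 for SNORD4A and 0.61 for SNORD30. Negative differences were -0.60 for SNORD114-26 and -0.56 for SNORD15A. Leaving out each of the 12 arrays in turn kept 7 of the 11 positive calls and 0 of the 2 negative calls throughout. The untreated KS arrays enter this difference as they enter the comparison of the untreated lines. In all groups but untreated KS the mean of SNORD20 lay under the background line, and SNORD114-26 lay under it in all 4 groups.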

How the results depend on the processing

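Of 68 named results, 43 kept their direction and call in each of the 22 alternative settings that tested them, and no value reversed. The filter on dim rows did not test members under the background line over all arrays. SNORD20, SNORD113-4 and SNORD114-3 were therefore counted without it. The difference of responses was not fitted with only the arrays compared. With each array left out in turn, the counts ranged from 4 to 15 lower and 0 to 1 higher for decitabine in KA, and from 35 to 43 lower and 6 to 11 higher for decitabine in KS. They ranged from 20 to 34 lower and 1 to 4 higher in untreated KA against untreated KS, from 5 to 14 lower and 4 to 7 higher in treated KA against treated KS, and from 8 to 18 positive and 0 to 4 negative for the difference of responses. With the replicate block, higher and lower counts were 0 and 9 for decitabine in KA, 9 and 39 in KS, 2 and 31 between untreated lines, 7 and 12 between treated lines, and 10 and 3 for the difference. For KA and decitabine the higher count of 0 became 1 with median centring, with the filter on dim rows, with the trended robust prior and without untreated KS replicate 3 and treated KS replicate 1 together, 2 with only the arrays compared and 4 with array weights, and the lower count of 12 became 6 with all rows tested and 27 with array weights. For KS and decitabine the higher count of 8 became 4 with the filter and 5 with all rows tested. Between untreated lines the higher count of 2 became 4 with quantile scaling and 1 with the filter, all rows tested or array weights. Between treated lines the lower count of 12 became 7 with median centring and 6 with all rows tested, and the higher count of 6 became 10 without both of these arrays. For the difference, the positive count of 11 became 19 with array weights and 22 without both of these arrays, and the negative count of 2 became 1 with the filter, 0 with all rows tested and 4 with array weights. The filter tests fewer rows and leaves out dim members; the cause of the other shifts was not tested. Signal over background limits the imprinted copies, none of which exceeded the background line over all arrays.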
